A study of Mus musculus with 9 samples.

Results

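Sterol synthesis in lung endothelial cells (ECs) was followed through 8 genes, namely the regulators Insig1 and Srebf2 and the enzyme genes Hmgcs1, Idi1, Fdps, Fdft1, Sqle and Lss. They were taken as every probe set of the array whose platform annotation lists one of these genes and no other, which gave 20 of the 34945 probe sets tested and 8 of the 18193 genes tested. Where a gene had several, the brightest on average across the 9 arrays stood for it. Sqle and Insig1 had 1 probe set each, Idi1, Fdps and Srebf2 had 2, Lss had 3, Fdft1 had 4 and Hmgcs1 had 5.

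The ECs came from whole lungs of NSG mice, an immune-deficient strain, and their transcripts were read on the Affymetrix Mouse Genome 430 2.0 platform, with 3 arrays of separate biological replicates per group. Metastatic B20 mice carried lung metastases grown from MDA-MB-231-LM2 cells, a lung-seeking subline of a human breast cancer line injected into the tail vein, and received B20.4.1.1, an antibody against VEGFA, at 10 mg/kg given 2 times a week. Metastatic IgG mice carried the same cancer cells and received control IgG. Both sets of mice were 6 to 8 weeks old at injection and were analyzed on day 21, and healthy IgG mice were of matched age, received no cancer cells and were given the same control IgG. Sorted cells were positive for CD31 and negative for hematopoietic, epithelial, mesenchymal and cancer cell labels, so cells touching a metastasis and cells of distant lung were pooled, and the NSG host limits which immune cells could be present. In such bulk RNA, fewer cells of a type and less RNA per cell cannot be told apart.

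Cholesterol is built from acetyl-CoA through mevalonate, isoprenoid units, squalene and lanosterol. Its supply is controlled by SREBP2, the product of Srebf2, a transcription factor made as a membrane protein of the endoplasmic reticulum and carried to the Golgi by its escort SCAP when sterols are scarce. There it is cut, and the released part turns on the enzyme genes of the pathway. When sterols are plentiful, INSIG proteins hold SCAP back, and Insig1 is itself a target of SREBPs, so that its level is widely read as a gauge of SREBP activity. Cholesterol in excess is exported or converted, and some of the genes for export are controlled by LXR receptors, which bind oxysterols.

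The promoters of both regulators and of Hmgcs1, the earliest enzyme gene among the 8, are printed as stretches searched for motifs of SREBPs and their partner factors. Promoters from RefSeq (build GRCm38.p6) were used for 5 of the 8 genes, all 5 of them on the plus strand, and those of the other genes were not analysed here. The 250 bases before the start of Insig1 (chr5:28071162-28071411), Srebf2 (chr15:82147019-82147268) and Hmgcs1 (chr13:119690101-119690350) read as follows, with capitals marking matches to the motifs searched on both strands.
Insig1: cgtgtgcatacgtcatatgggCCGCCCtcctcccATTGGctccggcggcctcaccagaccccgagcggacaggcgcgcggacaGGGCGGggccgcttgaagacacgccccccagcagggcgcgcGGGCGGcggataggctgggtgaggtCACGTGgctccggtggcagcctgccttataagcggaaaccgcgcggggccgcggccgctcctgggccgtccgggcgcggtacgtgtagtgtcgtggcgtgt
Srebf2: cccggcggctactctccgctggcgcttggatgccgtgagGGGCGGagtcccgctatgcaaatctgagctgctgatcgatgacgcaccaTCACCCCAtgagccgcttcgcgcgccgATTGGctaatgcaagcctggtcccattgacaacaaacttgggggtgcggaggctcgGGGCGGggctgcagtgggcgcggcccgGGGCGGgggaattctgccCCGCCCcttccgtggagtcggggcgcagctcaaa
Hmgcs1: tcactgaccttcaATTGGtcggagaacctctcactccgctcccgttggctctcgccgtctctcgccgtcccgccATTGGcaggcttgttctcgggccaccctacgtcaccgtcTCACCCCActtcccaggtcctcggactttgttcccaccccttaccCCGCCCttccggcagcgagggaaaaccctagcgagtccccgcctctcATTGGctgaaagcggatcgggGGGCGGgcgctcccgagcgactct

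The sterol regulatory element core TCACNCCA is the kind of site that SREBPs bind. It matched as TCACCCCA in Srebf2, 162 to 155 bases before the start, and in Hmgcs1, 137 to 130 bases before it. These were 2 of the 5 promoters, and those of Insig1, Idi1 and Lss had no match, against 3.67% of all 32851 RefSeq promoters of that length with one. The E-box CACGTG, a second kind of site open to SREBPs, matched in Insig1 101 to 96 bases before the start and is held by 6.02% of promoters. The CCAAT box, the site of the partner factor NF-Y and capitalized as ATTGG where it lies on the other strand, was present in all 5 promoters, those of Idi1 and Lss included, against 33.8% of all promoters. The GC box GGGCGG, the site of SP1 on either strand, was also in all 5, against 32.7%. No match of one motif overlapped a match of another. The motifs were picked with these promoters in view, and a match describes letters, not a bound site.

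Insig1 fell in metastatic IgG ECs and was the 1 gene of the 8 that passed the test. Its log2 expression was 10.11, 10.06 and 9.80 in the 3 metastatic IgG arrays, against 10.76, 10.96 and 10.72 in the 3 healthy IgG arrays. Every metastatic IgG array lay below every healthy array. The change was −0.82 ± 0.11 on the log2 scale (SE, n = 3 each), or 0.565 times the healthy level, with a 95% interval of −1.08 to −0.57 (limma, adjusted p = 0.0032). A gene is said to be called where limma's p, adjusted by Benjamini-Hochberg over all genes tested, was under 0.05. In this comparison 9.01% of all genes were called, 5.55% higher and 3.46% lower, and the arrays of both groups did not overlap for 29.1%. Insig1 has a single probe set, so no second probe set could be set beside it. Leaving out each of the 6 arrays in turn gave changes of −0.88 to −0.73, each of them called.

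In metastatic B20 ECs, Insig1 read 9.94, 10.44 and 10.68. Array 1 of that group sat among the metastatic IgG arrays and array 3 just under the lowest healthy array, so the group spanned most of the range between the other groups. The change against healthy ECs was −0.46 ± 0.17 (interval −0.86 to −0.06, adjusted p = 0.175), without overlap of arrays but not called. Against metastatic IgG ECs it was 0.36 ± 0.18 (interval −0.05 to 0.77, adjusted p = 0.663), with overlapping arrays and not called. The SD of Insig1 among the B20 arrays was 0.376, and 97.7% of genes had a smaller SD in that group, whose median SD was 0.115.

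Srebf2 was the second regulator and the second of the 8 whose metastatic IgG and healthy arrays did not overlap. It read 10.44, 10.41 and 10.45 in metastatic IgG ECs, against 10.77, 10.68 and 10.69 in healthy ECs. The difference was −0.28 ± 0.07 and narrowly missed the call (adjusted p = 0.0518). Its other probe set differed by −0.09 ± 0.09 in the same comparison, and the mean of both probe sets gave −0.18 with an adjusted p of 0.149. Metastatic B20 ECs stood between, at 10.45, 10.59 and 10.65, which is 0.13 ± 0.09 from metastatic IgG ECs (adjusted p = 0.771) and −0.15 ± 0.08 from healthy ECs (adjusted p = 0.354). Arrays did not overlap in the comparison with healthy ECs, where the other Srebf2 probe set differed by −0.14 ± 0.10.

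**Figure D1:**
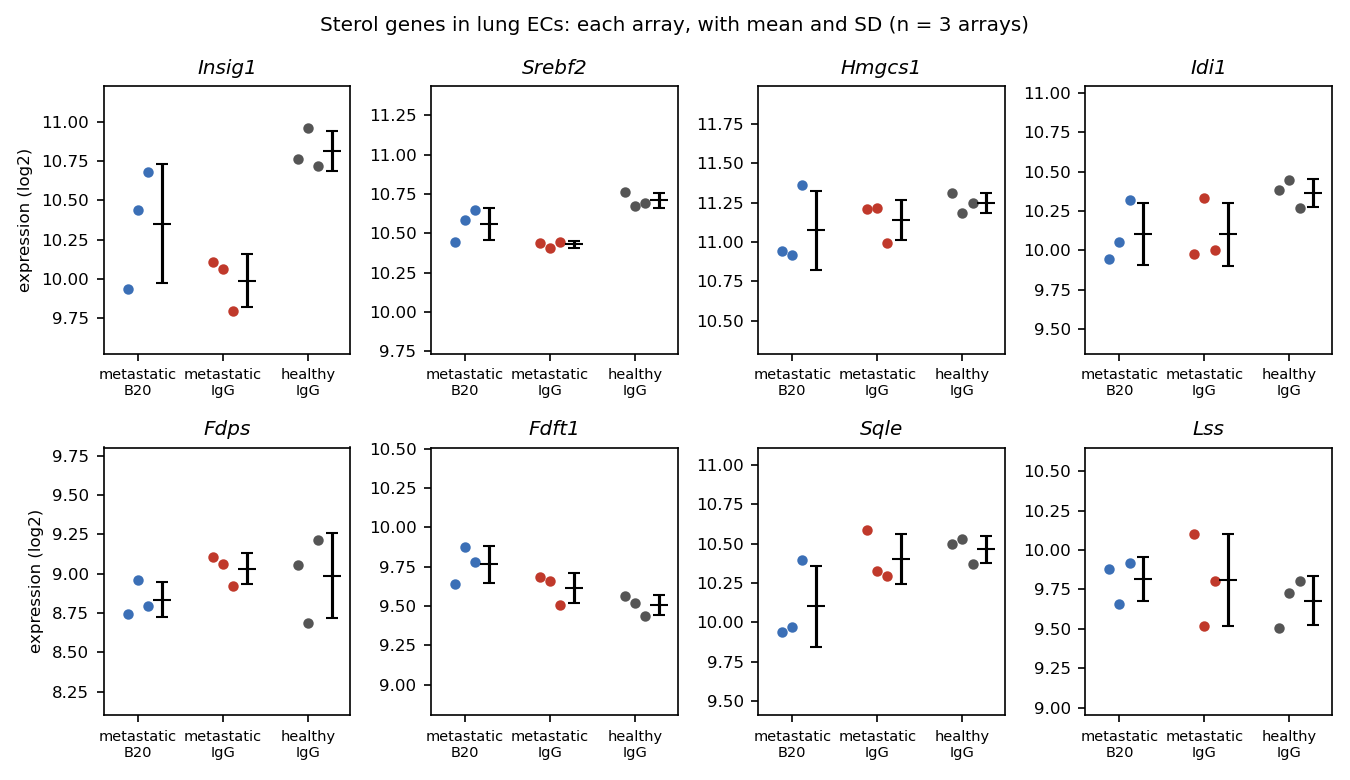
Log2 expression of the 8 genes, 1 point for each array, for metastatic B20, metastatic IgG and healthy IgG ECs from left to right, with the group mean and SD (n = 3) as bars and the same span on every vertical axis. The Insig1 points of metastatic IgG ECs lie at 9.80 to 10.11, under all healthy points at 10.72 to 10.96. For every enzyme gene the metastatic IgG and healthy points overlap.

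The enzyme genes moved less, and none was called in metastatic IgG ECs. Hmgcs1 encodes the synthase that makes HMG-CoA, the substrate for mevalonate, and read 11.21, 11.21 and 10.99 in metastatic IgG ECs, against 11.31, 11.18 and 11.25 in healthy ECs, a difference of −0.11 ± 0.09 (adjusted p = 0.532). The groups overlapped. Its other 4 probe sets differed by −0.16 to 0.03. Idi1, the isomerase that interconverts both isoprenoid building blocks, read 9.97, 10.33 and 10.00 in metastatic IgG ECs, against 10.38, 10.45 and 10.27 in healthy ECs, a difference of −0.26 ± 0.11 (adjusted p = 0.201). Array 2 of the metastatic IgG group lay among the healthy arrays and the other two below them. The second Idi1 probe set differed by −0.07 ± 0.09.

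Fdps joins isoprenoid units into farnesyl diphosphate, the branch point towards squalene and protein prenylation. It read 9.11, 9.07 and 8.92 in metastatic IgG ECs, against 9.06, 8.69 and 9.21 in healthy ECs, a difference of 0.04 ± 0.13 (adjusted p = 0.892) in which the healthy arrays spanned the metastatic ones. Fdft1, squalene synthase and the first step committed to sterols, read 9.68, 9.66 and 9.51 in metastatic IgG ECs, against 9.57, 9.52 and 9.44 in healthy ECs. The difference was 0.11 ± 0.08 (adjusted p = 0.495), and its other 3 probe sets differed by 0.10 to 0.21.

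Sqle, squalene epoxidase and a rate-limiting step of the later pathway, read 10.59, 10.33 and 10.29 in metastatic IgG ECs, against 10.50, 10.53 and 10.37 in healthy ECs, a difference of −0.06 ± 0.10 (adjusted p = 0.778). The groups overlapped. Lss, which closes squalene epoxide into lanosterol, read 10.10, 9.52 and 9.81 in metastatic IgG ECs, against 9.50, 9.73 and 9.80 in healthy ECs, a difference of 0.13 ± 0.15 (adjusted p = 0.673). Its other probe sets pointed in opposite directions, at 0.31 ± 0.12 and −0.17 ± 0.13, neither called.

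In metastatic IgG against healthy ECs, 1 of the 8 genes was called, against 9.01% of all genes. An unadjusted p under 0.05 was found for 3 of the 8, against 4243 of 18193 genes, and arrays did not overlap for 2 of the 8, against 29.1% of all genes. Changes were below 0 for 5 of the 8, against 50.2% of all genes. Their median change was −0.09, and −0.06 without Insig1, against −0.00 over all genes tested. By probe set, 1 of 20 was called, that of Insig1, against 7.41% of the 34945 probe sets. No probe set of an enzyme gene was called. For the probe set that stood for each enzyme gene, the 95% intervals of the test over genes reached −0.52 at the lowest (Idi1) and 0.47 at the highest (Lss), and a second Lss probe set reached 0.59 in the test over probe sets.

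**Figure D2:**
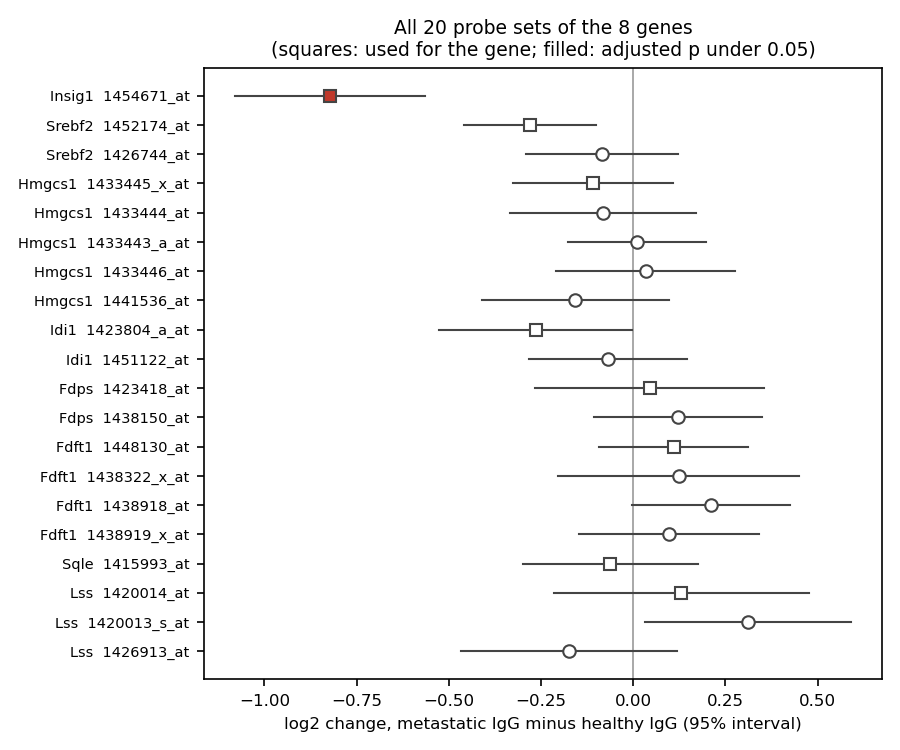
Log2 change in metastatic IgG minus healthy IgG ECs (horizontal axis) for each of the 20 probe sets (rows, grouped by gene), with 95% intervals. Squares mark the probe set used for a gene and the filled square marks the 1 called, Insig1 at −0.82.

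Against healthy ECs, metastatic B20 ECs had 0 of the 8 genes called at the adjusted threshold by limma, while 4 had an unadjusted p under 0.05, against 3850 of 18193 genes. In that comparison 6.44% of all genes were called, 4.15% higher and 2.29% lower. Arrays did not overlap for 3 of the 8 genes (Insig1, Srebf2 and Fdft1), against 26.9% of all genes. Changes were below 0 for 6 of the 8, against 52.2% of all genes, with a median of −0.16, against −0.01 over all genes. That median depended on the probe sets used. It was −0.08 with the probe sets of each gene averaged and −0.11 with probe sets without a shared suffix.

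Sqle read 9.94, 9.97 and 10.40 in metastatic B20 ECs, so that arrays 1 and 2 were below all 3 healthy arrays and array 3 was among them. The change against healthy ECs was −0.36 ± 0.13 (adjusted p = 0.152). Without B20 array 3 it was −0.51 with an adjusted p of 0.0312, the sole case in which leaving out an array added a call among the 8 genes. Against metastatic IgG ECs, Sqle differed by −0.30 ± 0.14 (interval −0.62 to 0.02, adjusted p = 0.652).

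Fdft1 went the other way. It read 9.64, 9.87 and 9.78 in metastatic B20 ECs, all above the healthy arrays, with a change of 0.26 ± 0.09 (adjusted p = 0.141), whereas its other 3 probe sets differed by −0.10 to 0.14 in that comparison. Idi1 read 9.94, 10.05 and 10.32 in B20 ECs, a difference of −0.26 ± 0.11 from healthy ECs (adjusted p = 0.224). Array 3 again lay among the healthy arrays, and the difference from metastatic IgG ECs was 0.00 ± 0.13. The second Idi1 probe set differed from healthy ECs by −0.07 ± 0.09.

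Hmgcs1 read 10.94, 10.92 and 11.37 in B20 ECs, −0.17 ± 0.13 from healthy ECs (adjusted p = 0.494). Array 3 exceeded every healthy array and the other two lay below them. Fdps read 8.75, 8.96 and 8.80, −0.15 ± 0.14 from healthy ECs (adjusted p = 0.589), and Lss read 9.88, 9.66 and 9.92, 0.14 ± 0.11 from healthy ECs (adjusted p = 0.528). Both overlapped the healthy arrays. In the same comparison, other probe sets differed by −0.06 to 0.14 for Hmgcs1, by 0.11 for Fdps and by −0.04 and 0.14 for Lss.

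Direct comparison of metastatic B20 with metastatic IgG ECs addressed what VEGFA blockade changed in metastatic lungs. None of the 8 genes was called, 0 had an unadjusted p under 0.05, and arrays overlapped for all 8, against 13.1% of all genes without overlap. Over all genes limma called 0%, although 1462 had an unadjusted p under 0.05. Of 9 mitosis genes measured, all 9 changed below 0, with a median of −0.57, and arrays did not overlap for 5. According to the paper, the mice compared here were picked for similar metastatic load in the lung. The median change of the 8 genes was 0.01. Beyond Insig1 and Sqle, the differences were −0.20 ± 0.10 for Fdps, 0.15 ± 0.10 for Fdft1, −0.06 ± 0.13 for Hmgcs1 and 0.01 ± 0.15 for Lss, with adjusted p-values from 0.658 to 0.992. Of the 20 probe sets, 1 had an unadjusted p under 0.05, the dimmest of Hmgcs1 at 0.30 ± 0.12 (adjusted p = 0.642). The interval for Insig1 runs from −0.05 to 0.77, which holds both no change and a rise of that size.

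**Figure D3:**
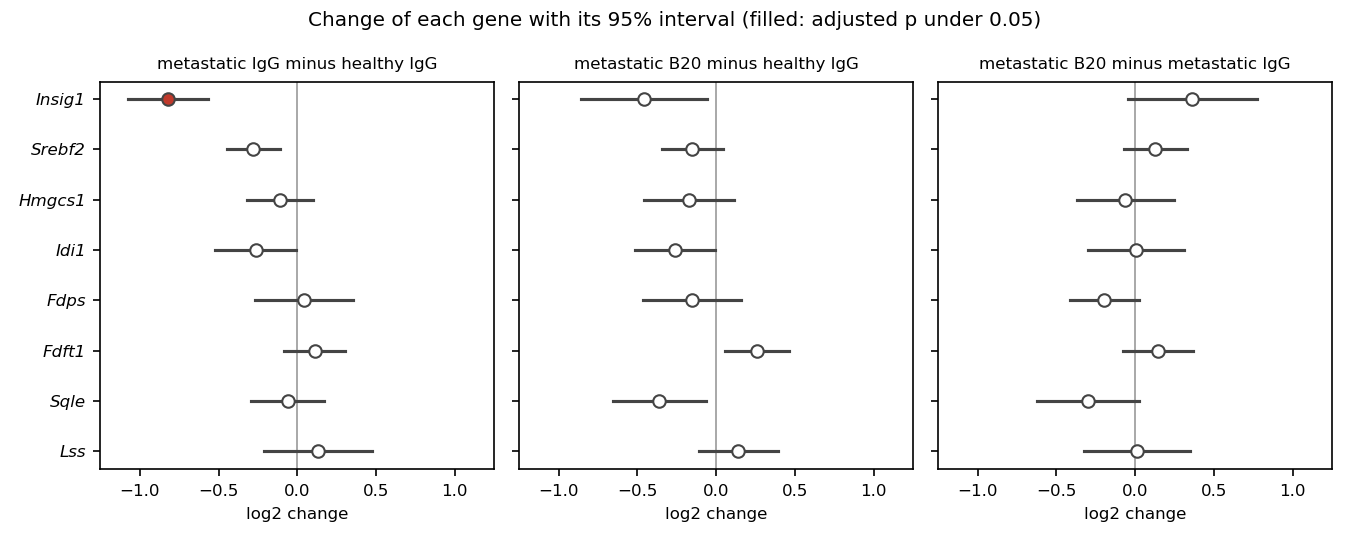
Log2 change (horizontal axis) of each of the 8 genes (rows) with its 95% interval in the 3 comparisons named above the panels. The filled point, Insig1 in metastatic IgG minus healthy IgG, is the 1 called value, and its B20 minus healthy estimate of −0.46 lies nearer to 0 with a wider interval.

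The spread of the 8 genes within the B20 group ran by array. Array 3 was above its group mean in 7 of the 8 genes, by 0.33 for Insig1, 0.30 for Sqle, 0.29 for Hmgcs1 and 0.22 for Idi1, and array 1 was above it in 1 of 8. The mean over the 8 genes was 9.93, 10.06 and 10.24 in B20 arrays 1, 2 and 3. Among metastatic IgG arrays, array 1 was above its group mean in 7 genes, array 2 in 5 and array 3 in 1, and the means were 10.15, 10.07 and 9.97. The means of the healthy arrays lay closer together, at 10.23, 10.22 and 10.22, but the values of single genes did not all do so. The SD of Fdps was 0.269 among healthy arrays, against 0.111 among B20 and 0.098 among metastatic IgG arrays. Over all genes, the SD of an array's deviations from its group was 0.14, 0.14 and 0.13 in B20 arrays 1, 2 and 3. The median deviation of the 8 genes was −0.13, −0.01 and 0.16 in these arrays, against 0.002, 0.003 and −0.003 over all genes. For each gene the deviations within a group cancel, so the counts of arrays in a group are not independent. The 3′ minus 5′ difference of the actin control probe sets, a sign of RNA length, was 0.62, 0.56 and 0.53 in B20 arrays 1, 2 and 3, 0.55, 0.49 and 0.55 in metastatic IgG arrays and 0.61 to 0.62 in healthy arrays. The same difference for GAPDH was 0.19, 0.10 and 0.06 in B20 arrays 1, 2 and 3. It was −0.01, −0.03 and 0.10 in metastatic IgG arrays and 0.18, 0.13 and 0.10 in healthy arrays. The part of RNA length in the Insig1 result and in these shifts was not tested.

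**Figure D4:**
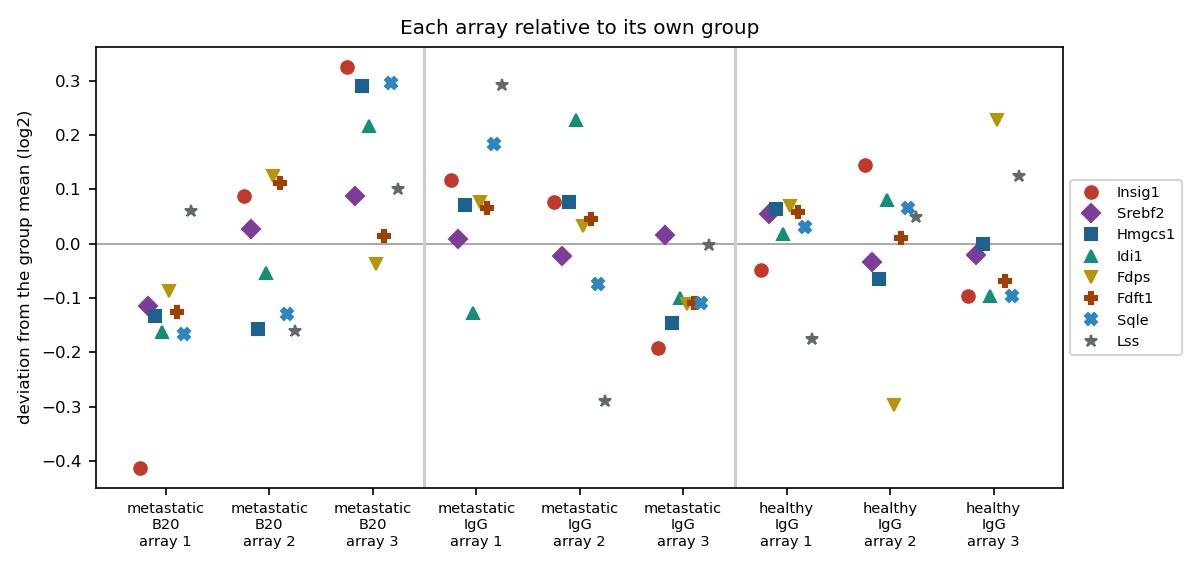
Deviation of each gene from its own group mean (vertical axis, log2) in each of the 9 arrays (horizontal axis, metastatic B20, metastatic IgG, then healthy IgG). In B20 array 3 the points of 7 of the 8 genes lie above 0, with Insig1 at 0.33, and in B20 array 1 those of 7 lie below it, with Insig1 at −0.41.

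The remaining pathway was read from 6 lists of related genes, of whose 83 genes 73 were analysed here. In metastatic IgG against healthy ECs, 8 rose and 2 fell, or 13.7% called, against 9.01% of all genes. The genes that rose belonged mainly to cholesterol export, oxysterol metabolism and transport, and those that fell included a late enzyme of sterol synthesis. In metastatic B20 against healthy ECs, 7 rose and 2 fell, or 12.3% called, against 6.44% of all genes. Both comparisons share the healthy arrays. No list gene was called between metastatic B20 and metastatic IgG ECs (0 of 73, 8 at an unadjusted p under 0.05).

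Of the efflux, esterification and oxysterol list, 4 of 8 measured genes rose in metastatic IgG ECs, 0 fell and 4 were not called. The list median was 0.28. Abca1, the transporter that loads cholesterol onto apolipoprotein, read 12.01, 11.98 and 11.66 in metastatic IgG ECs, against 10.67, 10.83 and 10.70 in healthy ECs. It rose by 1.15 ± 0.11 (adjusted p = 0.000705), and its other probe sets gave 0.90 to 0.98. Ch25h, which makes an oxysterol by hydroxylating cholesterol, read 11.90, 11.98 and 11.58 in metastatic IgG ECs, against 10.58, 10.95 and 10.57 in healthy ECs, and rose by 1.12 ± 0.14 (adjusted p = 0.00232). Lpcat3, an enzyme of phospholipid remodeling, rose by 0.43 ± 0.09 (adjusted p = 0.0199), and Cyp7b1, which hydroxylates oxysterols further, by 0.37 ± 0.08 (adjusted p = 0.0307).

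The same 4 genes were called in metastatic B20 against healthy ECs. Ch25h read 11.82, 12.39 and 12.13 in B20 ECs, 1.41 ± 0.16 above healthy ECs (adjusted p = 0.00197), and Abca1 read 11.80, 12.19 and 12.07, 1.29 ± 0.11 above them (adjusted p = 0.000576). Cyp7b1 rose by 0.59 ± 0.08 (adjusted p = 0.00403) and Lpcat3 by 0.43 ± 0.08 (adjusted p = 0.0157). Apoe, an abundant lipoprotein gene of the same list, stood at −0.01 ± 0.13 in metastatic IgG and −0.01 ± 0.13 in metastatic B20 against healthy ECs.

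Among 12 measured genes of cholesterol uptake and transport, 2 rose in metastatic IgG ECs and 0 fell, with a list median of 0.20. Scarb1, a receptor for high-density lipoprotein, read 13.31, 13.35 and 13.26 in metastatic IgG ECs, against 12.61, 12.68 and 12.70 in healthy ECs, and rose by 0.65 ± 0.07 (adjusted p = 0.00166). Its other probe sets gave 1.08 to 1.15. Gramd1b, which moves cholesterol from the plasma membrane into the endoplasmic reticulum, rose by 0.41 ± 0.10 (adjusted p = 0.0358), with a second probe set at −0.01. Under B20, 3 rose against healthy ECs, namely Gramd1b by 0.73 ± 0.10 (adjusted p = 0.00498), Scarb1 by 0.65 ± 0.07 (adjusted p = 0.00193) and Lipa, the lysosomal acid lipase, by 0.34 ± 0.07 (adjusted p = 0.0347).

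Of 12 other sterol enzymes, 1 fell in metastatic IgG ECs and none rose, with a list median of 0.01. Tm7sf2, a sterol reductase acting after lanosterol, read 8.81, 8.95 and 8.77 in metastatic IgG ECs, against 9.31, 9.29 and 9.39 in healthy ECs, and fell by 0.48 on the log2 scale (SE 0.08, adjusted p = 0.00962). It read 8.79, 8.63 and 9.05 in B20 ECs, −0.50 ± 0.11 against healthy ECs (adjusted p = 0.037). Sc5d, the sterol desaturase near the end of the pathway, differed by −0.36 ± 0.11 in metastatic IgG ECs (adjusted p = 0.0757) and fell in B20 ECs, with −0.54 ± 0.12 (adjusted p = 0.0396). Its other probe sets ranged from −0.69 to 0.07 in metastatic IgG against healthy ECs, and from −0.81 to −0.05 in the B20 comparison.

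SREBP processing and INSIG turnover genes were mostly level, with 1 of 11 called in metastatic IgG ECs and a list median of 0.05. Erlin1, an endoplasmic reticulum protein with a part in the breakdown of INSIG-bound proteins, rose by 0.40 ± 0.09 (adjusted p = 0.0332), and its second probe set stood at 0.17. Srebf1, which encodes the SREBP that leans towards fatty acid genes, differed by 0.30 ± 0.08 (adjusted p = 0.0556). Scap, the escort, differed by 0.23 ± 0.11 (adjusted p = 0.233), with a second probe set in the opposite direction at −0.15. Insig2, the second INSIG gene, differed by −0.11 ± 0.09 (adjusted p = 0.522). None of the 11 was called in B20 against healthy ECs, where Erlin1 was at 0.28 ± 0.09 (adjusted p = 0.0975), Srebf1 at 0.30 ± 0.10 (adjusted p = 0.132), Scap at 0.20 ± 0.08 and Insig2 at −0.07 ± 0.08.

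Of 17 fatty acid synthesis genes, 1 rose and 1 fell in metastatic IgG ECs, with a list median of −0.06. Scd1, the desaturase that makes monounsaturated fatty acids, read 10.45, 10.38 and 10.95 in metastatic IgG ECs, against 9.28, 9.49 and 10.12 in healthy ECs, and rose by 0.96 ± 0.23 (adjusted p = 0.035). Acsl3, a long-chain fatty acid activating enzyme, fell by 0.30 on the log2 scale (SE 0.07, adjusted p = 0.038). None was called in B20 against healthy ECs, where the desaturases Fads1 and Fads2 had the smallest p-values, at −0.32 ± 0.08 (adjusted p = 0.0537) and −0.45 ± 0.13 (adjusted p = 0.0782).

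The isoprenoid branch, which turns the products of Fdps into prenyl groups, dolichol and ubiquinone, had 0 of 13 genes called in all 3 comparisons. Its smallest p-values in metastatic IgG ECs were those of Fntb, a farnesyltransferase subunit, at 0.28 ± 0.08 (adjusted p = 0.0775), and Rabggtb, of the enzyme that prenylates Rab proteins, at 0.21 ± 0.09. In B20 against healthy ECs they were Coq2 at 0.20 ± 0.09 and Rabggta at −0.16 ± 0.09.

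Between metastatic B20 and metastatic IgG ECs, the pair of smallest p in each list had adjusted p-values of 0.412 to 0.789. In fatty acid synthesis they were Acacb at 0.40 ± 0.09 and Fads1 at −0.26 ± 0.09. In transport they were Gramd1b at 0.32 ± 0.10 and Mylip at −0.13 ± 0.09, and in the isoprenoid branch Fntb at −0.30 ± 0.08 and Dhdds at 0.14 ± 0.09. In efflux and oxysterols they were Cyp7b1 at 0.22 ± 0.09 and Cyp27a1 at 0.26 ± 0.11. Among other sterol enzymes they were Cyp51 at 0.17 ± 0.11 and Sc5d at −0.18 ± 0.13, and in SREBP processing Mbtps2 at 0.13 ± 0.09 and Erlin1 at −0.12 ± 0.09.

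**Figure D5:**
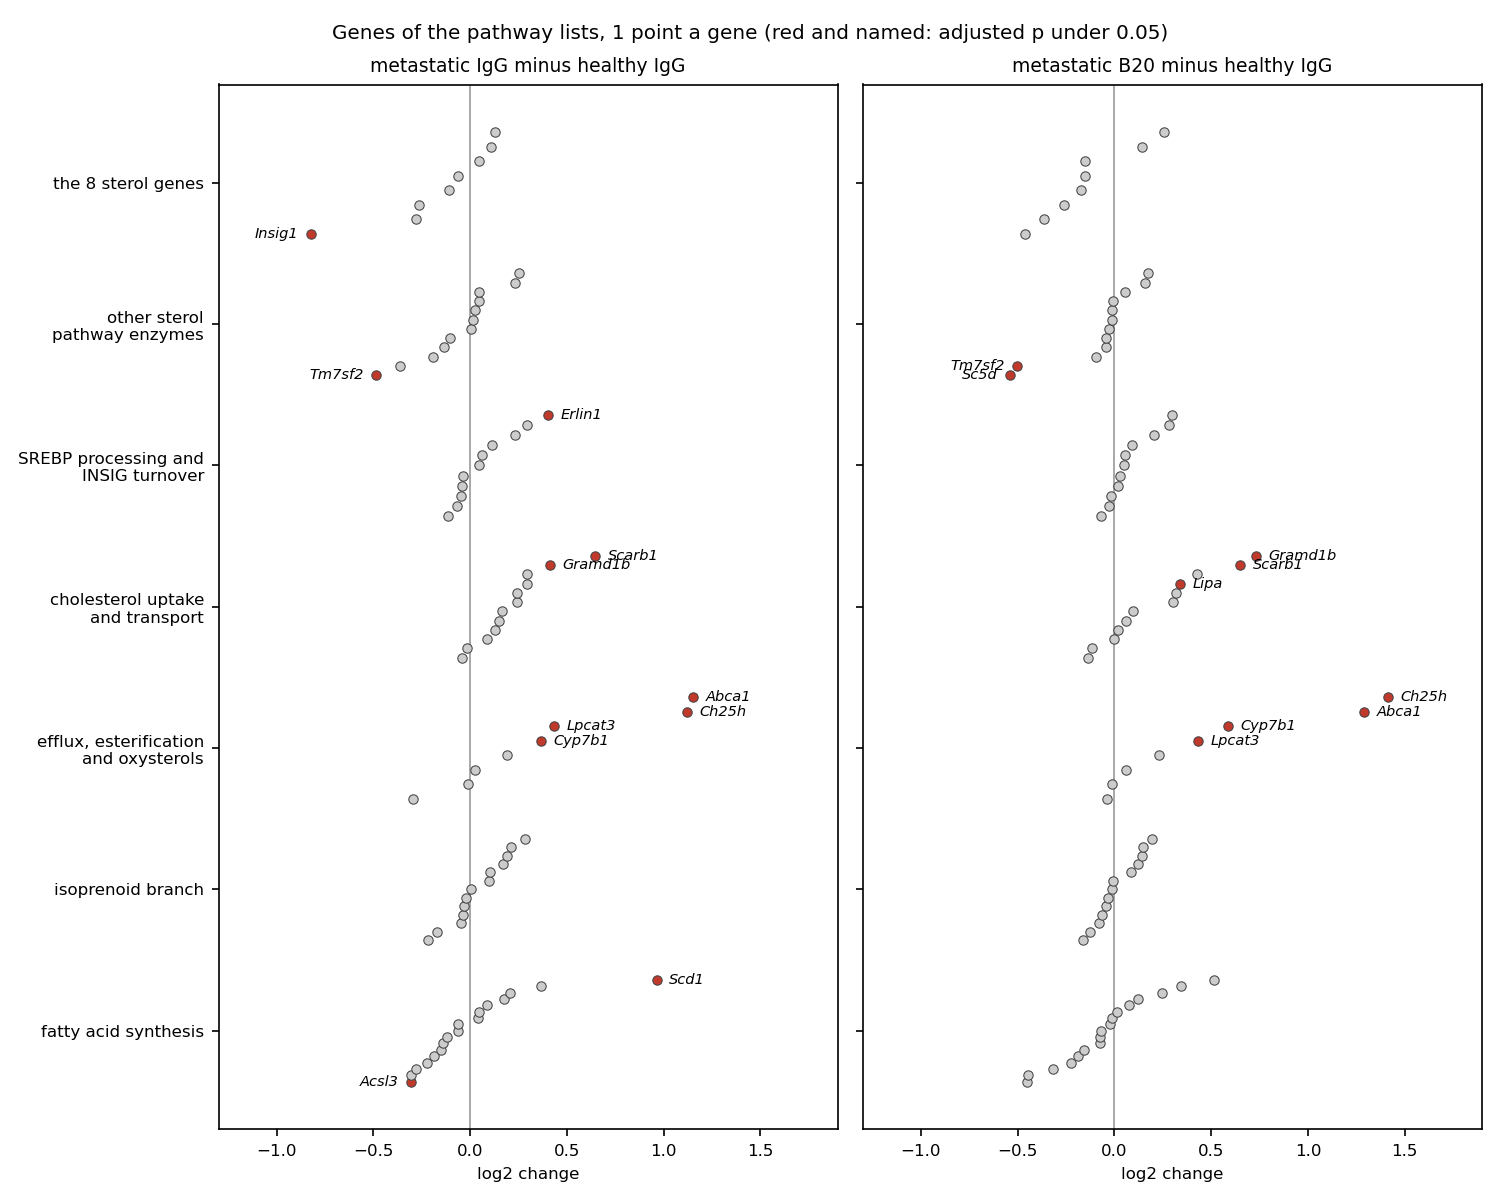
Log2 change (horizontal axis) of each gene of the 8 sterol genes and of the 6 pathway lists (rows), 1 point a gene, against healthy IgG ECs, for metastatic IgG (left) and metastatic B20 ECs (right). Called genes are red and named, and Abca1 and Ch25h lie farthest to the right in both panels, at 1.15 and 1.12 on the left and 1.29 and 1.41 on the right.

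Leaving out 1 array lowered the pathway count for metastatic IgG against healthy ECs to 5 without healthy array 1, 4 without healthy array 2, 5 without healthy array 3, 5 without metastatic IgG array 1 and 4 without metastatic IgG array 2. For B20 against healthy ECs it was 5 without healthy array 2 and 5 without healthy array 3.

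The profile of Insig1 across the 9 arrays, each gene centred on its own mean, was closest to that of Fgl2, at a root mean square distance of 0.119 on the log2 scale, followed by Fmo4 (0.156), Btbd19 (0.160), Ica1l (0.164) and 1700020D05Rik (0.166). Fgl2 encodes a fibrinogen-like protein and Fmo4 a flavin-containing monooxygenase. The nearest pathway gene was Tm7sf2, at rank 123 of the 18192 other genes, then Idi1 at 233 and Srebf2 at 276. These ranks rest on arrays shared by all the genes and describe the profiles only.

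Endothelial markers were bright in all 3 groups, and some of them and many markers of other cells moved with the groups. Of 12 endothelial markers, 1 rose in metastatic IgG against healthy ECs (Emcn, 0.43 ± 0.10). Arrays did not overlap for 6, against 29.1% of all genes, with Robo4 at 0.25 ± 0.07 and Eng at −0.28 ± 0.08. In B20 against healthy ECs, Emcn rose by 0.50 ± 0.09, Eng fell with −0.38 ± 0.08, and arrays did not overlap for 8 of the 12 markers, against 26.9% of all genes. The summed linear intensity of the endothelial markers was 89986 to 92267 in B20, 89439 to 92309 in metastatic IgG and 88539 to 91428 in healthy arrays. Of 12 macrophage and monocyte markers 10 rose in metastatic IgG and 9 in B20 ECs against healthy ECs, with sums of 15137 to 20567 in B20, 15717 to 17908 in metastatic IgG and 6531 to 9505 in healthy arrays, although CD45 and CD11b were gated out. Of 9 mitosis genes, all 9 rose in metastatic IgG and 7 in B20 ECs, with sums of 5881 to 8550 in B20, 9014 to 12890 in metastatic IgG and 2631 to 3487 in healthy arrays. In metastatic IgG ECs, 1 of 5 neutrophil, 2 of 10 epithelial, 3 of 8 fibroblast, 2 of 7 pericyte and smooth muscle, 1 of 4 mesothelial and 1 of 3 erythroid markers rose, and 1 of 8 fibroblast and 1 of 6 platelet markers fell. In B20 against healthy ECs, 4 of 5 neutrophil, 0 of 10 epithelial, 3 of 8 fibroblast, 1 of 7 pericyte and smooth muscle, 1 of 4 mesothelial, 1 of 6 platelet and 1 of 3 erythroid markers rose, and 1 of 8 fibroblast and 1 of 3 erythroid markers fell. Normalized values have no zero (the lowest on any array was 5.38), so no marker could be read as absent. The part of these cells and of proliferation in the Insig1 result and in those of the pathway lists was not tested. Arrays correlated at 0.991 or more within groups and 0.977 or more between them.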

How the data were processed

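RNA of ECs sorted from mouse lungs was measured in 9 arrays, 3 per group. Values of 45101 probe sets were deposited on the log2 scale after the authors had applied robust multiarray averaging (RMA) with Chipster, and no further normalization was made. RMA equalizes the distributions of the arrays, so changes are relative to the whole array and folds of dim probe sets are compressed. Platform annotation listed 1 gene for 34958 probe sets, several for 932 and none for 9211; the last 2 kinds and control probe sets were left out. Gene names of the 8 genes matched RefSeq by gene ID.

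The brightest probe set on average stood for a gene. For each of 3 comparisons, lmFit and eBayes (limma 3.58.1, R 4.3.3) were run on the 6 arrays concerned, after the empirical Bayes comparison stated in the methods, and p-values were adjusted by Benjamini-Hochberg over all 18193 genes, or all 34945 probe sets. No filter on dim genes was applied. The fit was tested on simulated data. Precision is limited by the number of arrays. Marker sums add linear (antilog) values over a list.

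The 8 genes, the pathway lists and the marker lists were chosen with earlier results of these data known, and nothing is adjusted over a list alone. Named were all 8 genes, in each pathway list the called genes (up to 6) or otherwise the pair of smallest p, Srebf1, Scap and Insig2, and the 5 profiles closest to Insig1. Apoe and the endothelial markers Emcn, Robo4 and Eng were named outside this rule. The rule held further genes not analysed here. Alternatives changed the samples in the fit, the replicate block, the dim filter, the probe set rule, the array level, the normalization, the variance model, the array weights, the thresholds and the arrays included. Figures were drawn with matplotlib 3.10.9.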

Additional observations from a re-analysis of the deposited data

How the results depend on the processing

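Insig1 stayed called and lower in metastatic IgG than in healthy ECs under all alternatives run. The count of the 8 genes called there was 1, and 2 in 1 fit of all 9 arrays, with array weights and with a trended, robust variance, where Srebf2 joined (adjusted p = 0.0467, 0.0468 and 0.0298), and 1 whichever array was left out. In B20 against healthy ECs it was 0, and 0 to 1 over arrays left out, as was the count of probe sets (Sqle without B20 array 3).

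Pathway genes called in metastatic IgG against healthy ECs numbered 10, but 6 with the replicate block, 3 at fold-based thresholds (absolute log2 change over 0.75, p under 0.05, adjusted p under 0.25) and 4 to 9 with an array left out. In B20 against healthy ECs they numbered 9, but 2 at those thresholds, 14 with a trended, robust variance and 5 to 9 with an array left out. Over all genes, 1640 were called in metastatic IgG against healthy ECs, but 507 at the fold-based thresholds and, at the adjusted p threshold, 869 to 1478 with an array left out. In B20 against healthy ECs 1172 were called, but 430 at the fold-based thresholds, 1848 with a trended, robust variance and, at the adjusted p threshold, 645 to 1139 with an array left out. Same-numbered arrays did not deviate together (correlations of −0.08 to 0.01), so the replicate block pairs nothing known. The cause of these changes was not tested.

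Of 360 recomputed changes of the 8 genes, 340 kept direction and call, 4 gained a call and 16 changed sign, none of them called. In B20 minus metastatic IgG, averaging the probe sets of each gene gave −0.046 for Fdft1, 0.043 for Hmgcs1 and −0.0090 for Lss, probe sets without a shared suffix gave 0.060 for Hmgcs1 and −0.0027 for Idi1, and array weights gave −0.053 for Lss. With an array left out, this difference ranged over −0.21 to 0.015 for Hmgcs1, −0.11 to 0.12 for Idi1 and −0.13 to 0.16 for Lss, and that of metastatic IgG minus healthy ECs over −0.10 to 0.16 for Fdps and −0.016 to 0.27 for Lss.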
